A study of Homo sapiens with 4 samples.

Results

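The 9 genes described here encode the AP-1 and immediate early transcription factors FOS, FOSB, FOSL1, FOSL2, JUN, JUNB, JUND, ATF3 and EGR1. They were chosen by gene symbol, a rule that itself uses no measured value, but with earlier results of these data known. All 9 were found among the 60558 Ensembl genes of each library. They were compared between cells with constitutively active AKT1 and vector-control cells in A549 and HCC827, which are established human lung adenocarcinoma (LAD) lines. Each line was transduced with an empty vector (A549-vector, HCC827-vector) or with myr-AKT1 (A549-myr-AKT1, HCC827-myr-AKT1), an AKT1 that carries a myristoylation signal and is thereby held at the membrane in an active state. All cells were kept in medium with serum. RNA of each of these 4 conditions was sequenced as 1 strand-specific library, so no difference within a line has a replicate check. The time between transduction and harvest, and whether the lines were pools or clones, are not given in the sources used here.

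AP-1 is a dimer of basic leucine zipper (bZIP) proteins. JUN proteins pair with each other or with FOS proteins, whereas FOS proteins need a JUN partner to bind DNA. The dimers bind the TPA response element (TRE), and dimers with ATF members prefer the cyclic AMP response element (CRE). FOS, FOSB, JUN, JUNB, ATF3 and EGR1 are immediate early genes, transcribed within minutes of growth factor or stress signals without new protein synthesis. FOSL1 and FOSL2, which encode the FRA1 and FRA2 proteins, appear later and last longer, and JUND is expressed more constantly. FOSL1 is known as a target of RAS and ERK signaling that accompanies invasion of epithelial tumor cells. EGR1 is no AP-1 member but a zinc finger factor with the same kind of serum and ERK control.

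The depth was 16322183 to 33530317 reads per library. The deposited normalized counts are reads scaled by 1 size factor for each library, and the factors were set within each line, so that levels between lines are given here as CPM (reads scaled to a common library total) and levels between genes as RPKM (CPM per kilobase of exon). Log2 fold changes are those of normalized counts in myr-AKT1 cells over vector cells of the same line, with 95% Clopper-Pearson intervals in parentheses. Intervals cover counting error only, and reads are not independent molecules. The AKT1 gene itself had 6297 normalized counts in A549-myr-AKT1 against 4243 in A549-vector cells, and 4805 in HCC827-myr-AKT1 against 2175 in HCC827-vector cells, and reads of the construct and of the cell's own gene cannot be told apart. All 7 epithelial markers examined had reads in every library, with a summed level of 4798 to 7851 CPM. The 5 fibroblast markers summed to 3.82 and 40.3 CPM in A549-vector and A549-myr-AKT1 cells and to 2.42 and 9.19 CPM in HCC827-vector and HCC827-myr-AKT1 cells, with COL3A1 and DCN each at 0 in a vector library. The 4 leukocyte markers summed to 0.0895 and 1.03 CPM in A549-vector and A549-myr-AKT1 cells and to 0.879 and 0.858 CPM in the HCC827 libraries in the same order, with CD3E at 0 reads throughout. The 3 endothelial markers summed to 0.447 and 4.76 CPM in A549 and to 3.52 and 6.74 CPM in HCC827. Fibroblast, leukocyte and endothelial sums were thus all higher with myr-AKT1 in A549. The part of these markers in the results was not tested. In bulk RNA, fewer cells that express a gene and less RNA per cell cannot be told apart.

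The promoters are shown to give the control elements near the starts of members whose levels are described below. The table used here holds RefSeq (GRCh38.p14) windows of 300 bases, from 250 before to 50 after the start, for 8 of the 9 genes, and ATF3 has a window for each of 2 starts. The promoter table used here holds no FOSL1 window. Both strands were searched for TGANTCA (the TRE), TGACGTCA (the CRE), TTCNNNGAA (the GAS element bound by STAT factors), GCGNGGGCG (the EGR site), the CArG box bound by serum response factor (SRF) and the κB site. TGACATCA, a variant CRE, was added after the sequences had been seen. No match overlapped another. The stretches below are those that hold a match, 5′ to 3′ on the strand of the gene, with the matched letters in capitals.
FOSL2, chr2:28392847-28392883, plus strand, the TRE at 5 to 11 after the start: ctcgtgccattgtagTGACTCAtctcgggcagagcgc
JUN, chr1:58784092-58784129, minus strand, the variant CRE at -67 to -60: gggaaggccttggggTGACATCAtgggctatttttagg
ATF3, chr1:212565269-212565306, plus strand, the variant CRE at -123 to -116: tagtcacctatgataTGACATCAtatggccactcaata
JUND, chr19:18281800-18281837, minus strand, the CRE at -200 to -193: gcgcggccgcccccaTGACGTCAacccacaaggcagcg
EGR1, chr5:138465359-138465420, plus strand, CArG boxes at -105 to -96 and -83 to -74: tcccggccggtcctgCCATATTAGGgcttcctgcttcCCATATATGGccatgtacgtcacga
EGR1, chr5:138465236-138465304, plus strand, the GAS element at -228 to -220 and the EGR site at -198 to -190: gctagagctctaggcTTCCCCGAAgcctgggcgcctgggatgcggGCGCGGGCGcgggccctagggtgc

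EGR1 was the only member whose window held a CArG box, and it held 2. A CArG box occurred in 1.29% of the 35116 promoter windows. The TRE was found in 7.71% of all windows, the CRE in 1.85%, the variant CRE in 2.61%, the GAS element in 7.66%, the EGR site in 9.43% and the κB site in 5.91%, the last in none of the members' windows. The windows of FOS, FOSB and JUNB, and that of the downstream start of ATF3, held none of the letters searched, which says nothing of elements further away.

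Of the FOS paralogs, FOSL1 was lower and FOSL2 higher in the myr-AKT1 library of both lines. FOSL1 (ENSG00000175592) lies on the minus strand of chromosome 11 from 65892049 to 65900573 in GRCh38, with 4 exons in its main transcript. It had 277 normalized counts in A549-vector, 106 in A549-myr-AKT1, 1296 in HCC827-vector and 160 in HCC827-myr-AKT1 cells. As CPM the HCC827-vector library, at 59.7, stood above the other libraries, at 3.69 to 9.45, and each myr-AKT1 library lay below its own vector library. In A549 cells this gave a log2 fold change of -1.38 (-1.73 to -1.04), and HCC827 cells had -3.02 (-3.29 to -2.76), an 8.11-fold lower level from 127 reads against 1631. The fold changes of the lines differed by -1.64 (HCC827 minus A549, -2.06 to -1.22), beyond counting error.

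FOSL2 (ENSG00000075426) lies on the plus strand of chromosome 2 from 28392448 to 28417317, also with 4 exons. It had 4666 normalized counts in A549-vector, 7151 in A549-myr-AKT1, 2653 in HCC827-vector and 6716 in HCC827-myr-AKT1 cells. Both myr-AKT1 libraries were above both vector libraries, also as CPM. The difference on the log2 scale was 0.62 in the A549 pair (0.56 to 0.67) and 1.34 in the HCC827 pair (1.28 to 1.40). These fold changes differed by 0.72 (0.64 to 0.81). Its locus also holds FOSL2-AS1 on the opposite strand and an unnamed lncRNA gene on the same strand, but neither shares an exon base with FOSL2. FOSL2-AS1 had 17 reads in HCC827-vector and 137 in HCC827-myr-AKT1 cells.

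FOS (ENSG00000170345), the founding member, lies on the plus strand of chromosome 14 from 75278826 to 75282230 and had few reads in these serum-fed cells. Its normalized counts were 112 in A549-vector, 255 in A549-myr-AKT1, 97.0 in HCC827-vector and 143 in HCC827-myr-AKT1 cells. The vector libraries were the lower ones in both lines, and the counting intervals of their CPM overlapped, as did those of the 2 myr-AKT1 libraries. FOS thus had a log2 fold change of 1.19 (0.87 to 1.52) in A549 and of 0.57 (0.18 to 0.95) in HCC827. FOSB (ENSG00000125740; plus strand of chromosome 19, 45467995 to 45475179) was near the limit of detection, with 15 reads in A549-vector, 5 in A549-myr-AKT1, 12 in HCC827-vector and 16 in HCC827-myr-AKT1 cells. Its log2 fold changes of -1.19 (-3.01 to 0.34) and 1.08 (-0.09 to 2.29) both had intervals that include 0, so no difference was detectable at this depth.

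Among the JUN paralogs, JUNB was higher in the myr-AKT1 library of both lines, JUN in A549 and JUND in HCC827. JUNB (ENSG00000171223), which lies on the plus strand of chromosome 19 from 12791486 to 12793315 in a single exon, pairs with FOS proteins and activates many TRE genes less strongly than JUN. It had 980 normalized counts in A549-vector, 3771 in A549-myr-AKT1, 1072 in HCC827-vector and 1748 in HCC827-myr-AKT1 cells. As CPM both vector libraries, at 33.5 in A549 and 49.4 in HCC827, lay below both myr-AKT1 libraries, at 131 and 85.1. JUNB had a log2 fold change of 1.94 (1.85 to 2.04) in A549, a 3.85-fold higher level, and of 0.71 (0.60 to 0.81) in HCC827. The HCC827 value minus that of A549 was -1.24 (-1.39 to -1.09). HOOK2 on the opposite strand shares 259 exon bases with JUNB. HOOK2 had 262 reads in A549-vector, 289 in A549-myr-AKT1, 922 in HCC827-vector and 515 in HCC827-myr-AKT1 cells. The strand setting of the counting is not given in the sources used here, so reads of that overlap may not be told apart.

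JUN (ENSG00000177606; minus strand of chromosome 1, 58776845 to 58784048, 1 exon) encodes c-Jun, the JUN protein that is activated by the stress kinase JNK. It had 401 normalized counts in A549-vector, 792 in A549-myr-AKT1, 1614 in HCC827-vector and 1694 in HCC827-myr-AKT1 cells. Both HCC827 libraries had more JUN than both A549 libraries, at 74.4 and 82.5 CPM against 13.7 and 27.5. The A549 pair gave a log2 fold change of 0.98 (0.81 to 1.16). The HCC827 pair gave 0.07 with an interval of -0.03 to 0.17, so that no difference beyond counting error was seen there. The difference between the lines was -0.91 (-1.11 to -0.72).

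JUND (ENSG00000130522; minus strand of chromosome 19, 18279694 to 18281622, 1 exon), which restrains proliferation in several cell types, had the narrowest range of CPM over the 4 libraries, 1.71-fold from the lowest to the highest. It had 1473 normalized counts in A549-vector, 1554 in A549-myr-AKT1, 769 in HCC827-vector and 1242 in HCC827-myr-AKT1 cells. The HCC827-vector library was the low one, and the CPM intervals of the other 3 overlapped with those of their neighbours in the order of levels. Its log2 fold change was 0.08 (-0.03 to 0.18) for the A549 pair and 0.69 (0.56 to 0.82) for the HCC827 pair.

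Per exon length, the 2 HCC827 libraries differed little in the summed level of the FOS family and much in its make-up. FOSL1 made up 63.0% of the FOS family level (counting SE 0.705) in HCC827-vector cells and 7.91% (SE 0.654) in HCC827-myr-AKT1 cells, while FOSL2 made up 34.0% (SE 0.664) and 87.6% (SE 0.724). The family summed to 50.2 RPKM in HCC827-vector and 52.2 RPKM in HCC827-myr-AKT1 cells. In A549 cells FOSL2 was already the main paralog with vector, at 78.0% (SE 0.856), and stood at 87.9% (SE 0.630) with myr-AKT1, while FOSL1 made up 17.6% (SE 0.837) and 4.97% (SE 0.493). The A549 family sum was 28.5 RPKM with vector and 39.4 RPKM with myr-AKT1. FOS itself never made up more than 7.06% of the family level, and FOSB at most 0.338%. With vector the lines thus differed in their leading FOS paralog, FOSL2 in A549 and FOSL1 in HCC827, and with myr-AKT1 FOSL2 led in both.

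The summed JUN family level was higher with myr-AKT1 in both lines, at 107 against 48.1 RPKM in A549 and 101 against 65.9 RPKM in HCC827. JUND was the leading paralog in A549-vector cells, with 54.2% of the family level (SE 0.884), and JUNB in A549-myr-AKT1 cells, with 66.8% (SE 0.637). In HCC827 cells JUNB led in both libraries, with 41.0% (SE 0.805) in vector and 46.2% (SE 0.858) in myr-AKT1 cells. JUN made up 31.1% of the family level in HCC827-vector cells (SE 0.652) and 22.6% in HCC827-myr-AKT1 cells (SE 0.597), against 7.85% (SE 0.364) and 7.09% (SE 0.268) in the A549 libraries. These shares are of mRNA per exon length, and protein and phosphorylation were not measured in these libraries.

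ATF3 was higher with myr-AKT1 in HCC827 with no detectable difference in A549, and EGR1 was lower in A549 and higher in HCC827. ATF3 (ENSG00000162772), on the plus strand of chromosome 1 from 212565334 to 212620777, is a bZIP factor that is induced by many stresses, among them amino acid shortage and unfolded proteins, which also induce DDIT3. It had 68.1 normalized counts in A549-vector, 59.5 in A549-myr-AKT1, 79.5 in HCC827-vector and 457 in HCC827-myr-AKT1 cells. The HCC827-myr-AKT1 library stood alone, at 22.2 CPM against 2.06 to 3.66 CPM in the others. In HCC827 the log2 fold change was 2.52 (2.20 to 2.86), a 5.75-fold higher level, and in A549 it was -0.19 with an interval of -0.73 to 0.33. The difference between the lines was 2.72 (2.12 to 3.32). DDIT3, from the list of stress genes below, was singled out after its value was seen. It had 248 reads in HCC827-vector and 886 in HCC827-myr-AKT1 cells, a log2 fold change of 2.50 against 0.37 in A549 cells. Of the 9 genes on that list, 2 were above 1 in HCC827 (14.1% of all genes) and 3 below -1 (12.4%). A link between DDIT3 and ATF3 was not tested.

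EGR1 (ENSG00000120738; plus strand of chromosome 5, 138465479 to 138469303, 2 exons) encodes the zinc finger factor whose promoter holds the CArG boxes printed above. It had 29.7 normalized counts in A549-vector, 13.7 in A549-myr-AKT1, 80.3 in HCC827-vector and 160 in HCC827-myr-AKT1 cells. The myr-AKT1 library was the lower one in A549 and the higher one in HCC827. In A549 the log2 fold change was -1.11 (-2.20 to -0.13), from 12 reads against 34, and in HCC827 it was 0.99 (0.61 to 1.39), from 127 reads against 101 at a smaller depth. The difference between the lines was 2.10 (1.08 to 3.13). As CPM, EGR1 was highest in HCC827-myr-AKT1 cells, and the intervals of the single A549 libraries overlapped although that of their ratio lies below 0.

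Set against all genes, the members were not uniformly displaced. Genes were called by a log2 fold change above 1 or below -1, or by the thresholds of 2 and -2 that the study used. The study described its listed genes as significant, with adjusted p-values from a Wald test, whereas no p-value was required here. Only genes whose normalized counts in the line averaged 10 or more were counted. In A549 cells 8 members met this minimum, FOSB falling short at 9.41. Of these, 2 were above 1 (FOS and JUNB), where 15.1% of 18750 genes were, and 2 were below -1 (FOSL1 and EGR1), where 9.87% were. None passed 2 or -2, the shares of all genes being 5.79% and 2.81%. In HCC827 cells all 9 members were measured. Of these, 3 were above 1 (FOSB, FOSL2 and ATF3), where 14.1% of 17358 genes were, and 1 was below -1 (FOSL1), where 12.4% were. ATF3 alone was above 2 and FOSL1 alone below -2, against 4.65% and 3.08% of all genes. JUN in A549, at 0.98, and EGR1 in HCC827, at 0.99, lay just under the threshold of 1. The median over the measured members was 0.35 in A549 and 0.71 in HCC827 cells, and over all genes -0.03 and -0.04.

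Base composition moved with the fold changes in HCC827. With genes divided by the GC content of their longest annotated transcript into 5 groups of nearly equal size, the median log2 fold change was -0.36 in the lowest group and 0.20 in the highest in HCC827 cells, and -0.07 and 0.07 in A549 cells. The members other than ATF3 lie in the upper groups, with JUND at 69.9% GC and JUNB at 64.9%. With the median of a gene's own GC group subtracted, the HCC827 log2 fold changes were 0.50 for JUNB, 0.49 for JUND, 1.23 for FOSL2, 0.89 for EGR1, 2.50 for ATF3 and -3.22 for FOSL1, and JUN went from 0.07 to -0.04. FOSB went from 1.08 to 0.88 and was then no longer above 1. No member's difference beyond counting error changed its direction.

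In a fit over all 4 libraries with cell line as a block, made with limma on 19314 genes with 1 residual degree of freedom, 0 of the 9 members passed a Benjamini-Hochberg adjusted p of 0.05. In all, 1.29% of the genes passed as higher and 1.73% as lower. At an unadjusted p under 0.05, 3 members passed in limma, 3 in edgeR and 3 in DESeq2. For these counts and those of the lists below, the share of all genes at that level is not reported here. They can therefore not be set against a background. FOSL1 had a log2 fold change of -2.19 (SE 0.47, adjusted p = 0.0539), JUNB 1.32 (SE 0.33, adjusted p = 0.0855) and FOSL2 0.98 (SE 0.27, adjusted p = 0.108), each in the same direction in 2 of 2 lines. The other members had adjusted p-values of 0.373 or above from limma. EdgeR's quasi-likelihood test with TMM scaling called 0 members, with an adjusted p of 0.0655 for FOSL1. It called 196 of all 19314 genes as higher and 228 as lower. DESeq2's Wald test called 3, with adjusted p-values of 0.0126 for FOSL1, 0.0359 for JUNB and 0.0273 for FOSL2. Of all 19314 genes, DESeq2 called 616 as higher and 516 as lower, more than the 250 and 335 of limma. Limma called the same 3 members when every gene with at least 1 read in any library was kept, with adjusted p-values of 6.38e-06 for FOSL1, 0.000606 for JUNB and 0.00717 for FOSL2. With that filter 1101 of 33056 genes were called higher and 894 lower. The spread between separate cultures of a condition was not measured.

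Among the other bZIP partners of FOS and JUN proteins, 1 gene was above 1 in both lines, where 4.60% of the 15704 genes measured in both were, and 0 were below -1 in both, where 4.08% were. The gene was MAF, a large MAF factor, with 3 reads in A549-vector, 67 in A549-myr-AKT1, 5 in HCC827-vector and 23 in HCC827-myr-AKT1 cells. Its log2 fold change was 4.87 in A549 (3.26 to 7.19) and 2.86 in HCC827 cells (1.44 to 4.62). Of the list of 11, 10 were measured in A549, 3 above 1 (15.1% of all genes) and 0 below -1 (9.87%), and 9 in HCC827, 2 above 1 (14.1%) and 1 below -1 (12.4%). The median was 0.24 in A549 and 0.84 in HCC827 cells. Among the further genes past 1, singled out after their values were seen, were BATF2 at 2.77 in A549, JDP2, a repressor that dimerizes with JUN, at 1.76 in HCC827, and BATF3 at -1.17 in HCC827. In the limma fit 0 of 9 passed the adjusted threshold and 3 had an unadjusted p under 0.05, while edgeR and DESeq2 each called 0.

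Of 27 other immediate early genes, 23 were measured in A549, 4 above 1 (15.1% of all genes) and 3 below -1 (9.87%), and 21 in HCC827, 3 above 1 (14.1%) and 0 below -1 (12.4%). These counts are small, and those above 1 are near the shares over all genes. The median was 0.11 in A549 and 0.47 in HCC827 cells. NR4A1, an orphan nuclear receptor, was past 1 in opposite directions, as 1.47% of the genes measured in both lines were, with 1553 and 483 reads in A549-vector and A549-myr-AKT1 cells and 34 and 65 reads in HCC827-vector and HCC827-myr-AKT1 cells. Its log2 fold changes of -1.29 (-1.44 to -1.15) and 1.60 (0.98 to 2.24) had the signs of EGR1. The remaining genes past 1 in A549, named after their values were seen, were the serum- and glucocorticoid-induced kinase SGK1 at 2.23, the mRNA decay factor ZFP36 at 1.81, GADD45B at 1.23, IER5 at 1.07, MYC at -1.74 and CCN1 at -1.45. In HCC827 they were DUSP1, a phosphatase of MAP kinases, at 1.62 and PPP1R15A at 1.08. EGR2, EGR3 and EGR4 had at most 5 reads in any library. In the limma fit 0 of 23 passed and 5 had an unadjusted p under 0.05, while edgeR called 0 and DESeq2 called 1, ZFP36. Of the 2 EGR1 corepressors, NAB1 and NAB2, 0 were called by limma, edgeR or DESeq2, and 0 had an unadjusted p under 0.05. Their log2 fold changes lay between -0.15 and 0.42.

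Few of the factors and kinases that act on these promoters were past 1. The 12 upstream genes included SRF, its ETS partners, its MRTF coactivators and the MAP kinases. In A549, 0 were above 1 (15.1% of all genes) and 0 below -1 (9.87%). In HCC827, 0 were above 1 (14.1%) and 1 was below -1 (12.4%). This was the ETS repressor ELK3 at -1.42 (-1.55 to -1.30), named after its value was seen. SRF was at -0.18 and 0.19. The median was -0.22 in A549 and -0.08 in HCC827 cells, and 0 of 12 passed the limma fit, with 1 at an unadjusted p under 0.05 and 0 called by edgeR or DESeq2.

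Genes known as AP-1 targets, many of which other factors such as NF-κB and STAT3 also drive, went both ways. Of 20 listed, 17 were measured in A549, 7 above 1 (15.1% of all genes) and 3 below -1 (9.87%), and 16 in HCC827, 5 above 1 (14.1%) and 4 below -1 (12.4%). The median was 0.90 in A549 and 0.20 in HCC827 cells. In the limma fit 4 of 16 rose and 1 fell, against 1.29% and 1.73% of all genes. Not all of them are named here, and edgeR and DESeq2 each called the same 5 genes. Of all 19314 genes edgeR called 196 higher and 228 lower, and DESeq2 616 and 516. The interleukin-1α gene IL1A rose by 4.40 on the log2 scale (SE 0.52, adjusted p = 0.00959), from 3 to 97 reads in A549 and from 196 to 1787 in HCC827. CXCL8, the neutrophil chemokine IL-8, rose by 3.16 (SE 0.42, adjusted p = 0.0133) and SPP1, osteopontin, by 1.59 (SE 0.27, adjusted p = 0.0284). HMGA1, a chromatin protein, fell by 1.48 (SE 0.24, adjusted p = 0.0254), with log2 fold changes of -1.53 in A549 (-1.60 to -1.47) and -1.42 in HCC827 cells (-1.48 to -1.37). All 5 limma calls were lost with a pseudocount of 0.1 or without the block, where 0 of all genes passed. Past 1 in opposite directions, as 1.47% of all genes were, were the collagenase MMP1, at 3.56 (2.23 to 5.25) in A549 and -1.70 (-2.60 to -0.89) in HCC827, and the cytokine LIF, at -1.17 (-1.26 to -1.09) and 1.28 (1.17 to 1.39).

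Heat shock and stress genes, which can move with the handling of cells before lysis, were measured beside the members. Of 9 genes, 0 were above 1 (15.1% of all genes) and 1 was below -1 (9.87%) in A549. In HCC827, 2 were above 1 (14.1%) and 3 below -1 (12.4%). Their median log2 fold change was -0.46 in A549 and 0.64 in HCC827 cells. HSPA1A, the inducible HSP70, was at -0.46 in A549 (-0.54 to -0.38) and 0.72 in HCC827 cells. Its reads are hard to tell from those of its near-identical copy HSPA1B. HSP90AA1 was lower in both lines, at -1.05 and -1.03, and 4.08% of the genes measured in both lines were below -1 in both. In the limma fit 0 of 9 passed and 5 had an unadjusted p under 0.05, while edgeR called 0 and DESeq2 called 1, HSP90AA1. The genes above 1 in HCC827, named after their values were seen, were DDIT3 and the endoplasmic reticulum chaperone HSPA5 at 1.57 (1.54 to 1.60), and HSPA8 at -1.31 and HSPH1 at -1.10 were below -1 beside HSP90AA1. The part of handling in the members' values was not tested.

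The members with the widest range over the 4 libraries were FOSL1, ATF3 and EGR1, and other genes were ranked by the Euclidean distance between centred profiles of log2(CPM + 1) among 12021 genes whose normalized counts averaged 50 or more in each line. Nearest to FOSL1 were NEXN, at a distance of 0.644, and MAPKAPK3, at 0.704, both also highest in HCC827-vector cells. Their log2 fold changes were -3.15 and -2.21 in HCC827, and in A549 -0.48 and -0.74 against -1.38 for FOSL1. Nearest to ATF3 were RASAL1, at 0.0901, and SLC6A9, at 0.205, with HCC827 log2 fold changes of 2.52 and 2.13. For EGR1 they were ZNF841, at 0.158, and BRPF3, at 0.171. Their log2 fold changes were 0.71 and 0.81 in HCC827, and in A549 -0.47 and -0.40 against -1.11 for EGR1. The added 1 shrinks differences at low levels, and EGR1 lay at 0.476 and 1.01 CPM in A549-myr-AKT1 and A549-vector cells. With 4 libraries such profiles hold few independent values.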

How the data were processed

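RNA of vector-control and myr-AKT1 A549 and HCC827 cells was sequenced by the authors as 4 libraries. Per the labels, ribosomal RNA was depleted, whereas the methods describe poly(A) selection. Reads were trimmed, masked and mapped to hg38 with Bowtie2, and values per gene were made with HTSeq. The methods name RPKM, but the deposited signal is whole read counts that were each divided by the size factor of the library. Reads were recovered by dividing by the worth of 1 read, where a value within 0.001 of a whole number counted as whole. All values were whole except 1 in each vector library. A gene with 0 reads in 1 library of a pair was set to 3 reads there for calls. GENCODE release 44 matched 60261 of 60558 identifiers.

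Members and lists were chosen with earlier results of these data known. All members were named, list genes when past 1 in both lines, and the 2 nearest profiles of 3 members. Values of some list genes are not reported here. The fit used limma on log2(normalized count + 1) with a trend, cell line as a block and genes kept by filterByExpr, and its log2 fold changes understate those of genes with few reads. EdgeR and DESeq2 on recovered reads, other scalings, pseudocounts, filters and thresholds were alternatives, and a GC correction and the TGACATCA motif were chosen after seeing the data. The scripts were tested on simulated data. Exon lengths are unions of annotated exons. Tools were limma 3.58.1, DESeq2 1.42.0 and edgeR 4.0.16 in R 4.3.3, and pandas 2.3.3, scipy 1.17.1 and numpy 2.4.6 in Python 3.11.15.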

Additional observations from a re-analysis of the deposited data

Results flagged for a closer look

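EGR1 was marked because its myr-AKT1 library lay on opposite sides of its vector library in A549 and HCC827, and neither counting interval includes 0. The log2 fold change of EGR1 was -1.11 in the A549 pair and 0.99 in the HCC827 pair. The difference has no test against replicate error, since each line has 1 pair of libraries, and the A549 value rests on 12 and 34 reads.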

How the results depend on the processing

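No direction of a member's log2 fold change whose counting interval excludes 0 changed under total counts, a pseudocount of 1, TMM, the GC correction or size factors from the 4 libraries together. Members above 1 in A549 numbered 2 and were 0 at a threshold of 2. They were 3 with TMM, total counts, size factors from the 4 libraries or the GC correction, where JUN was gained. Members below -1 in A549 numbered 2 and were 0 at a threshold of 2. They were 1 with a mean of at least 50, because EGR1 did not pass that minimum. With at least 1 read in both libraries as the filter they were 3, where FOSB was gained. Members above 1 in HCC827 numbered 3 and were 1 at a threshold of 2, 2 with a mean of at least 50 or with the GC correction, where FOSB was lost, and 4 with total counts or size factors from the 4 libraries, where EGR1 was gained. The fit called 250 higher and 335 lower genes with limma, 196 and 228 with edgeR and TMM, and 616 and 516 with DESeq2. With edgeR and size factors over all 4 libraries it called 42 and 57. With at least 1 read in any library limma called 1101 and 894, FOSL1, JUNB and FOSL2 among them. Limma called 0 and 0 with a pseudocount of 0.1 or without the block. The causes were not tested. The fitted log2 fold changes of FOSB (-0.03) and EGR1 (-0.04) were 0.0803 and 0.0982 in edgeR, and that of EGR1 was 0.0832 in DESeq2. With the longest annotated transcript as the length, FOS made up 5.81% (A549) and 3.82% (HCC827) of its family with vector and 9.70% and 5.84% with myr-AKT1. FOSL2 made up 76.0% in A549-vector cells and 85.2% (A549) and 85.7% (HCC827) with myr-AKT1, and JUN 8.65% and 33.5% with vector and 7.82% and 24.5% with myr-AKT1. The fit pairs the libraries by cell line through its block, and the labels give no replicate numbers to pair by. No library could be left out, because 1 residual degree of freedom leaves no test without it. FOSB and EGR1 in A549 are limited by depth.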
